A study of Homo sapiens with 8 samples.

Results

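CC and CXC chemokines are secreted proteins that attract leukocytes, and 10 of their genes were followed here in human neuroblastoma cells after knockdown of TRPM7, an ion channel fused to a protein kinase. The genes were CCL2, CCL7, CCL20, CXCL1, CXCL2, CXCL3, CXCL5, CXCL6, IL8 (now named CXCL8) and CXCL12. Every probe carrying one of these symbols was taken, which gave 15 of the 47322 probes on the array and 10 of its 31426 gene symbols. The set was drawn up because CCL2, CCL7, CXCL1 and IL8 had risen in SH-EP2 TRPM7 shRNA cells, so the SH-EP2 values of these genes are given below as a description and without a test. The comparison that the choice did not use was that in SH-SY5Y cells.

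The study profiled 2 established neuroblastoma cell lines, the neuroblastic line SH-SY5Y and the epithelial-like line SH-EP2. A lentivirus brought either an shRNA against TRPM7 or a nonfunctional scrambled shRNA, the control, into cells of each line, and both populations were selected with puromycin, so that every array is of transduced and selected cells. Illumina HumanHT-12 v4 bead arrays were run in duplo, which gave 2 arrays for each of the 4 groups. Only 1 TRPM7 shRNA was used on these arrays, and the sources do not say whether the duplicates were separate cultures. The p-values therefore measure no more than the spread between these arrays. The fit pools that spread over the 4 groups and draws it towards that of probes of similar brightness. The single TRPM7 probe was detected on 0 of the 8 arrays (detection p 0.0753 to 0.201), and the knockdown could therefore not be checked on the arrays.

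Chemokines are grouped by the spacing of the first conserved cysteines in the protein. CCL2 and CCL7 recruit monocytes through CCR2, and CCL20 recruits lymphocytes and dendritic cells through CCR6. CXCL1, CXCL2, CXCL3, CXCL5, CXCL6 and IL8 carry a Glu-Leu-Arg motif, signal through CXCR1 or CXCR2 and attract neutrophils. These genes are classical targets of NF-kB, are induced by IL1 and TNF, and give short-lived mRNAs. CXCL12 lacks the Glu-Leu-Arg motif, is mostly expressed constitutively by stromal cells and binds CXCR4 and CXCR7.

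The genes of the neutrophil-attracting group lie in a single cluster, and their promoters are printed because they share one stretch of letters. The 6 promoters span 359.1 kb of chromosome 4. Sequences were taken from the RefSeq annotation of GRCh38.p14, which held a promoter window for 9 of the 10 genes. CCL2 had no window and was not searched, and the window of CCL20 was searched but is not printed. The windows ran from 250 bases before to 50 bases after the annotated start. Each line gives the 110 bases before the start, 5′ to 3′ on the strand of the gene. Capitals mark the letters GGAATTTCC, the core of a kB site, in the first 6 lines and an AP-1 motif in CCL7. CXCL12 has no capitals and is shown for contrast.
IL8 (chr4:73740459-73740568, + strand): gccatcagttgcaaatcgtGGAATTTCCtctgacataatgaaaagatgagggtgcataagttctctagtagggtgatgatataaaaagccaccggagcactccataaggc
CXCL6 (chr4:73836568-73836677, + strand): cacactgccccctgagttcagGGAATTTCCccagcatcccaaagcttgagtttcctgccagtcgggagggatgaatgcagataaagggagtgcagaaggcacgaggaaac
CXCL1 (chr4:73869283-73869392, + strand): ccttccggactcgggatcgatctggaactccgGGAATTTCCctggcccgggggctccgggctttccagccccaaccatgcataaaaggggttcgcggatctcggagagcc
CXCL5 (chr4:73998678-73998787, - strand): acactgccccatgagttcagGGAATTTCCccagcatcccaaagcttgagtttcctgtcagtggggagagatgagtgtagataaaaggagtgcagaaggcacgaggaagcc
CXCL3 (chr4:74038690-74038799, - strand): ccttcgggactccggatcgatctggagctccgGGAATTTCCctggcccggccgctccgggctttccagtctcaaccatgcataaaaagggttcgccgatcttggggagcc
CXCL2 (chr4:74099196-74099305, - strand): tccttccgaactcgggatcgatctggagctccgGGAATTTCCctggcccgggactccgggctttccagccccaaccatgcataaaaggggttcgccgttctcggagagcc
CCL7 (chr17:34270111-34270220, + strand): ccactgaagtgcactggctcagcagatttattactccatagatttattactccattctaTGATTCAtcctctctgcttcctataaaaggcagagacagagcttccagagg
CXCL12 (chr10:44385098-44385207, - strand): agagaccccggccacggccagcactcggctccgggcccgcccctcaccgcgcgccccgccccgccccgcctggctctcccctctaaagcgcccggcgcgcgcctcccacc

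GGAATTTCC was chosen as a search string with these promoters in view. On either strand it was present in 0.464% of the 34943 windows of the annotation, and in 6 of the 9 chemokine windows, where it began 77 to 91 bases before the start. The broader NF-kB consensus, which overlaps it, was present in 5.9% of all windows and in those of CCL20, CXCL1, CXCL2, CXCL3, CXCL5 and CXCL6. The AP-1 motif TGANTCA was found in 7.72% of all windows and in those of CCL7 and IL8. TATAAA was found in 11.6% of all windows and in those of CCL7, CCL20 and IL8. CXCL1 and CXCL3 had the same base at 90% of the 110 positions printed, all of which lie before the start. Whether the probes of related genes also bind each other's RNA was not tested, and these promoter letters do not bear on it. A match to these letters does not show that a factor was bound, and no binding was measured in these cells.

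Signals are the deposited bead intensities on a linear scale, on which the array medians lay between 105 and 120. A probe was called detected at a detection p under 0.05, and 19331 to 20904 probes per array were. Background-corrected and quantile-normalized log2 values are given as mean ± SD (n = 2) and are called log2 levels. Where a probe was undetected in the dimmer group, the fold is a lower bound, the mean of the brighter group over the lowest level of a detected probe or the level of the probe itself, whichever was higher. Such a bound holds only for the background correction used, the RMA model. Of the 15 chemokine probes, 9 were detected on both arrays of SH-EP2 control cells, 13 in SH-EP2 TRPM7 shRNA cells, 2 in SH-SY5Y control cells and 4 in SH-SY5Y TRPM7 shRNA cells. Each probe has its own brightness, so no level is set against that of another probe. In bulk RNA, fewer cells expressing a gene and less RNA of it per cell cannot be told apart.

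In SH-EP2 cells, both monocyte-attracting CC chemokines were higher with TRPM7 shRNA. CCL2 had signals of 4949 and 4344 in the control cells and of 9810.4 and 9838 in the TRPM7 shRNA cells. Its log2 level went from 12.20 ± 0.044 to 13.26 ± 0.0015, a difference of 1.06 or 2.08-fold. CCL7 had signals of 117 and 106 in control cells, where it was undetected, and of 254 and 270 in TRPM7 shRNA cells, where its log2 level was 7.21 ± 0.13. That is at least 15.8-fold higher under the RMA background model, but the means differed 7.59-fold under neqc, 3.28-fold under normexp and 2.37-fold with no correction. CCL20 had signals of 110 to 120 on the SH-EP2 arrays and was undetected on all 8 arrays.

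Of the neutrophil-attracting CXC chemokines, CXCL1 and IL8 differed most between the SH-EP2 groups among the probes measured in both. CXCL1 had signals of 146 and 127 in control cells and of 740 and 711 in TRPM7 shRNA cells. Its log2 level was 4.52 ± 0.60 in the former and 9.25 ± 0.054 in the latter, a difference of 4.73 or 26.5-fold. The control arrays lay just above background, and all 4 arrays detected the probe.

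IL8 was measured by 2 probes, and both were higher in SH-EP2 TRPM7 shRNA cells. Probe ILMN_2184373 had signals of 143 and 148 in control cells and of 602 and 701 in TRPM7 shRNA cells, and its log2 level rose from 5.05 ± 0.42 to 9.06 ± 0.18, a difference of 4.01 or 16.1-fold. Probe ILMN_1666733 had signals of 155 and 143 against 305 and 321, with log2 levels of 5.21 ± 0.14 and 7.64 ± 0.094, a difference of 2.43 or 5.39-fold. The probes therefore gave the same direction and a different size.

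CXCL5 was also higher by both of its probes. Its brighter probe, ILMN_2171384, had signals of 215 and 185 in control cells and of 392 and 398 in TRPM7 shRNA cells, 3.11-fold higher after normalization. The other probe, ILMN_1752562, had signals of 167 and 145 against 256 and 255, 3.28-fold higher. CXCL2 was undetected in control cells, with signals of 123 and 107, and had signals of 182 and 184 in TRPM7 shRNA cells, at least 7.33-fold higher under the RMA background model. Its means differed 3.69-fold under neqc, 1.98-fold under normexp and 1.60-fold with no correction.

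CXCL6 and CXCL3 stayed close to background in SH-EP2 cells. The CXCL6 probes had signals of 116 and 116 (ILMN_1779234) and of 109 and 109 (ILMN_2161577) in control cells, where both were undetected. In TRPM7 shRNA cells they reached 128 and 128, and 126 and 125, at least 1.31-fold and at least 1.07-fold higher under the RMA background model. With no background correction their means differed 1.08-fold and 1.13-fold. CXCL3 had signals of 123 and 116 in control cells and of 119 and 125 in TRPM7 shRNA cells. It was detected on 1 TRPM7 shRNA array, and the groups overlapped.

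CXCL12 went the other way in SH-EP2 cells and was lower by each of its 3 probes. Probe ILMN_1791447 had signals of 1508 and 1339 in control cells and of 1152 and 1140.1 in TRPM7 shRNA cells, a difference in log2 level of -0.36. Probe ILMN_1803825 gave -0.70, from signals of 872 and 756 against 554 and 546. Probe ILMN_1689111 gave -0.50, from signals of 992 and 935 against 727 and 718. The control and TRPM7 shRNA arrays did not overlap for any of these probes, and the decreases ranged from 1.29-fold to 1.62-fold.

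Counted over the set, 8 of the 15 probes, of 6 genes, were at least 2-fold higher in SH-EP2 TRPM7 shRNA cells and detected on both arrays, as 0.949% of all probes on the array were. The probe nearest above this line was CCL2, and the nearest below it was CXCL6 (ILMN_1779234). None of the 15 (0) was at least 2-fold lower, as 1.02% of all probes were. Both TRPM7 shRNA arrays lay above both control arrays for 11 probes (22.1% of all probes) and below them for 3 (20.8% of all probes). The median difference in log2 level was 1.24 over the 15 probes and 0.01 over all probes. The choice of the genes used this contrast, so nothing is read from these counts.

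**Figure D1:**
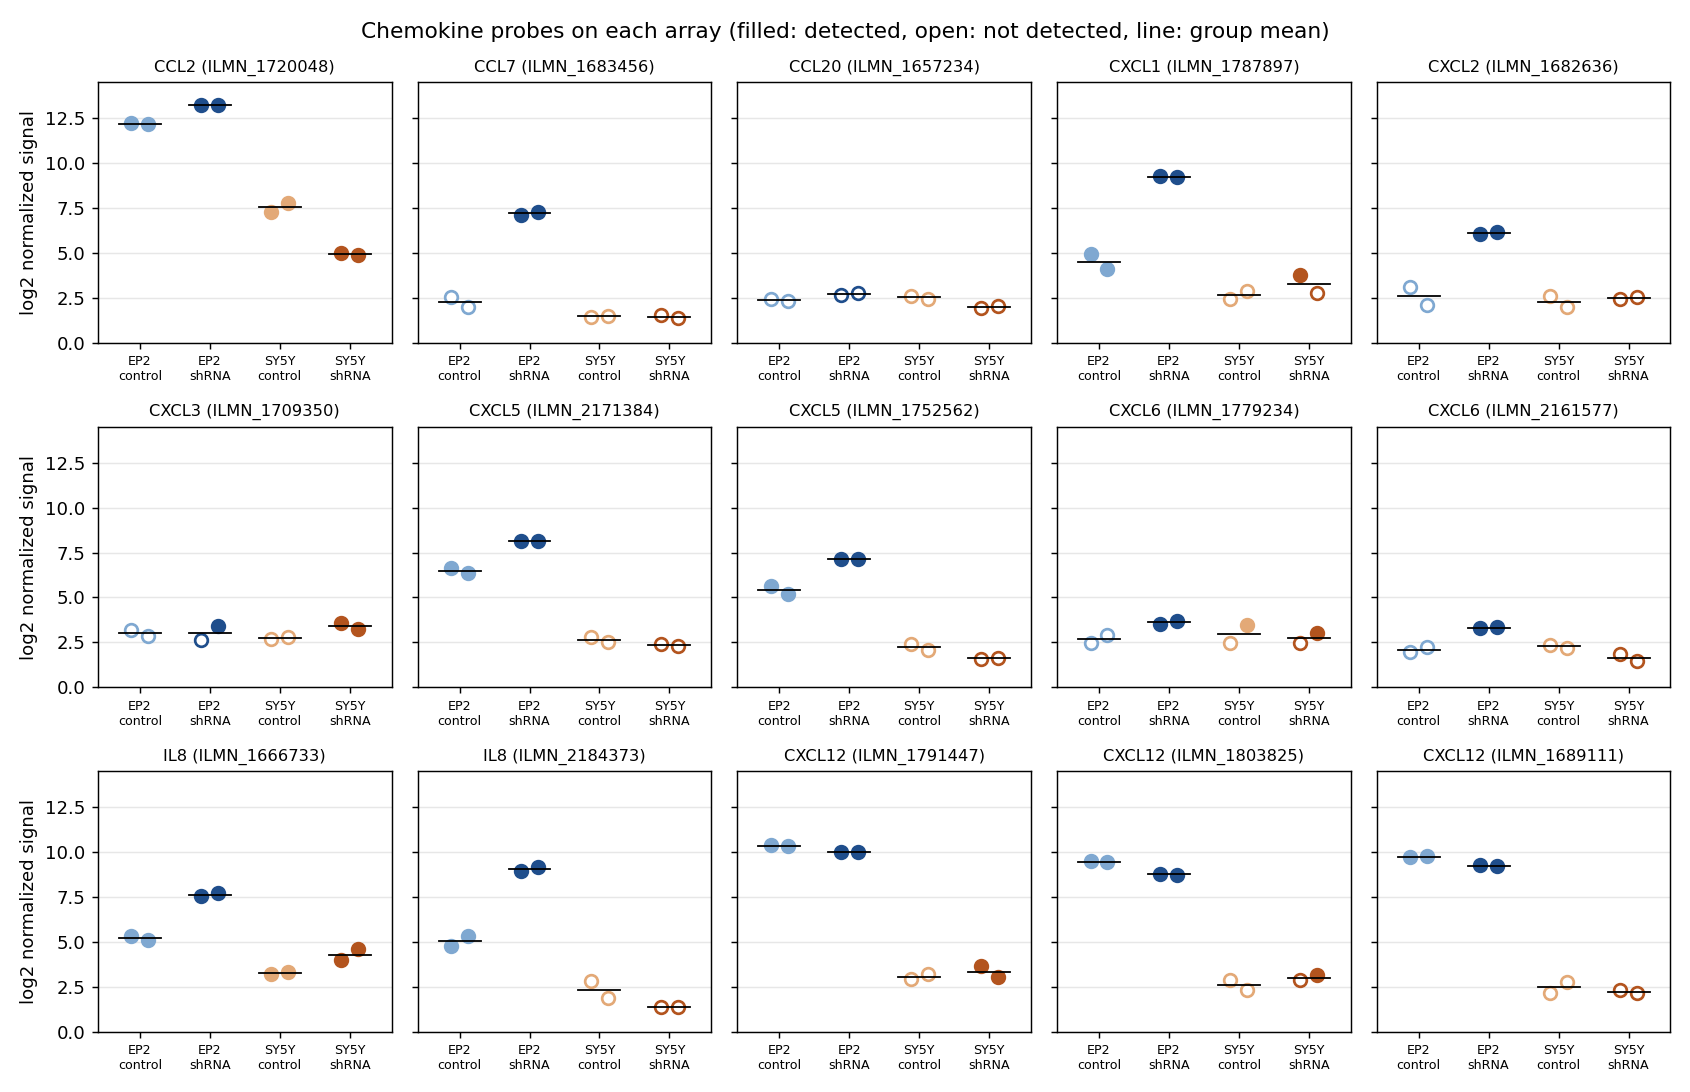
Normalized log2 level (y axis) of the 15 chemokine probes on the 8 arrays, 1 panel per probe, with the 4 groups along the x axis. Filled points were detected, open points were not, and bars are group means. CXCL1, CCL7 and IL8 stand apart in SH-EP2 TRPM7 shRNA cells, CXCL12 is detected on the SH-EP2 arrays at 8.75 or more, and CCL2 falls from 7.54 to 4.93 in SH-SY5Y cells.

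In SH-SY5Y cells, CCL2 fell and no other chemokine probe passed the test. CCL2 had signals of 284 and 275 in control cells and of 151 and 151 in TRPM7 shRNA cells. Its log2 level fell by 2.61 (SE 0.12), from 7.54 ± 0.33 to 4.93 ± 0.10, or 6.10-fold (limma, Benjamini-Hochberg adjusted p = 3.79e-10 over all probes). Without the intensity trend in the fit, its limma adjusted p was 0.02565. All 4 arrays detected it and the groups did not overlap. CCL2 is also one of the genes that the study singled out from these SH-SY5Y arrays, so these p-values are not independent of that choice. The CCL2 difference was thus positive in SH-EP2 and negative in SH-SY5Y cells, and the difference between the lines was not tested because the SH-EP2 values chose the gene.

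IL8 was the one neutrophil-attracting chemokine with a probe detected on all 4 SH-SY5Y arrays. Probe ILMN_1666733 had signals of 117 and 110.2 in control cells and of 132 and 145 in TRPM7 shRNA cells. Its log2 level was 3.29 ± 0.074 in the former and 4.29 ± 0.42 in the latter, a difference of 1.00 (SE 0.27) that did not pass the test (limma adjusted p = 0.0679). The difference was 1.28 without SH-SY5Y TRPM7 shRNA replicate 1 and 0.69 without SH-SY5Y TRPM7 shRNA replicate 2. With all arrays it shrank to 0.47 under neqc, 0.21 under normexp and 0.14 with no background correction. It passed under none of these background treatments (limma adjusted p = 0.482 with no correction). Its size in SH-SY5Y cells therefore depended on the background model. The second IL8 probe was undetected in SH-SY5Y cells, so its lower value there (unadjusted p = 0.0144, adjusted p = 0.248) is one between levels that were not measured.

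CXCL3 and CXCL12 crossed the detection limit in SH-SY5Y cells without passing the test. CXCL3 had signals of 111 and 106 in control cells, undetected, and of 127 and 124 in TRPM7 shRNA cells, detected. It was at least 1.20-fold higher under the RMA background model (limma adjusted p = 0.677), and the means differed 1.06-fold with no correction. CXCL12 probe ILMN_1791447 had signals of 114 and 109 against 127 and 121. It was at least 1.14-fold higher under the RMA background model (limma adjusted p = 0.680), and the means differed 1.02-fold with no correction. Its difference in log2 level turned to -0.032 without SH-SY5Y TRPM7 shRNA replicate 1. CXCL1 was detected on 1 of the 4 SH-SY5Y arrays, with signals of 109 and 106 in control cells and of 129 and 117 in TRPM7 shRNA cells (limma adjusted p = 0.580). CCL7, CCL20, CXCL2 and CXCL5 were undetected on all SH-SY5Y arrays. One CXCL6 probe (ILMN_1779234) was detected on 1 array of each SH-SY5Y group, and the other on 0.

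Of the 15 probes, 1 was therefore called in SH-SY5Y cells, and 2.11% of all probes on the array were. That probe was lower, as were 1.30% of all probes, and 0 of the 15 were called higher against 0.807% of all probes. At an unadjusted p under 0.05, 1 chemokine probe was higher (5.53% of all probes) and 2 were lower (5.86% of all probes). Both TRPM7 shRNA arrays lay above both control arrays for 3 probes (20.0% of all probes) and below them for 6 (19.2% of all probes). The median difference in log2 level was -0.21 over the 15 probes, most of them undetected, and 0.00 over all probes.

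The control cells of both lines differed in which of these genes were expressed. CXCL12 was bright in SH-EP2 control cells, with log2 levels of 10.36 ± 0.030, 9.47 ± 0.056 and 9.75 ± 0.032 by its 3 probes, and undetected in SH-SY5Y control cells, so that SH-EP2 was at least 147-fold, 79.2-fold and 96.2-fold higher under the RMA background model. With no background correction the differences in log2 level were 3.59, 2.85 and 3.11. CCL2 was 25.3-fold higher in SH-EP2 than in SH-SY5Y control cells. These are descriptions without a test, because the SH-EP2 control arrays entered the choice of the genes.

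CXCL5, IL8 and CXCL1 were likewise detected in SH-EP2 control cells. By its probes, CXCL5 was at least 10.1-fold and 4.84-fold higher than in SH-SY5Y control cells under the RMA background model, with differences in log2 level of 0.84 and 0.51 when no background was corrected. IL8 was 3.77-fold higher by the probe detected in both lines (ILMN_1666733) and at least 3.71-fold higher by the other. CXCL1 was at least 2.58-fold higher. With no background correction the IL8 probes differed by 0.31 and 0.41 and CXCL1 by 0.26 in log2 level. In all, 9 of the 15 probes were at least 2-fold higher in SH-EP2 control cells and detected there, as were 7.19% of all probes.

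Across the 4 groups, the order of CCL2 levels was SH-EP2 TRPM7 shRNA, SH-EP2 control, SH-SY5Y control and SH-SY5Y TRPM7 shRNA cells, and no neighbours in that order overlapped. For the IL8 probe ILMN_1666733 the order was SH-EP2 TRPM7 shRNA, SH-EP2 control, SH-SY5Y TRPM7 shRNA and SH-SY5Y control cells, again without overlap. For CXCL12 the SH-EP2 control cells came first and the SH-EP2 TRPM7 shRNA cells next, and the SH-SY5Y groups, at or near background, overlapped for the probe ILMN_1791447.

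The size of most of these differences depended on how the background was treated, and the dim probes moved most. With the RMA background model, the neqc method, the normexp method and no correction, CXCL1 was 26.5-fold, 14.1-fold, 7.29-fold and 5.28-fold higher in SH-EP2 TRPM7 shRNA cells. IL8 by probe ILMN_2184373 was 16.1-fold, 10.2-fold, 5.86-fold and 4.41-fold higher. The bright CCL2 probe in SH-EP2 cells moved only from 2.08-fold to 2.06-fold between the RMA model and no correction. In SH-SY5Y cells, where CCL2 was dim, its fall went from 6.10-fold through 4.01-fold and 2.56-fold to 2.09-fold.

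**Figure D2:**
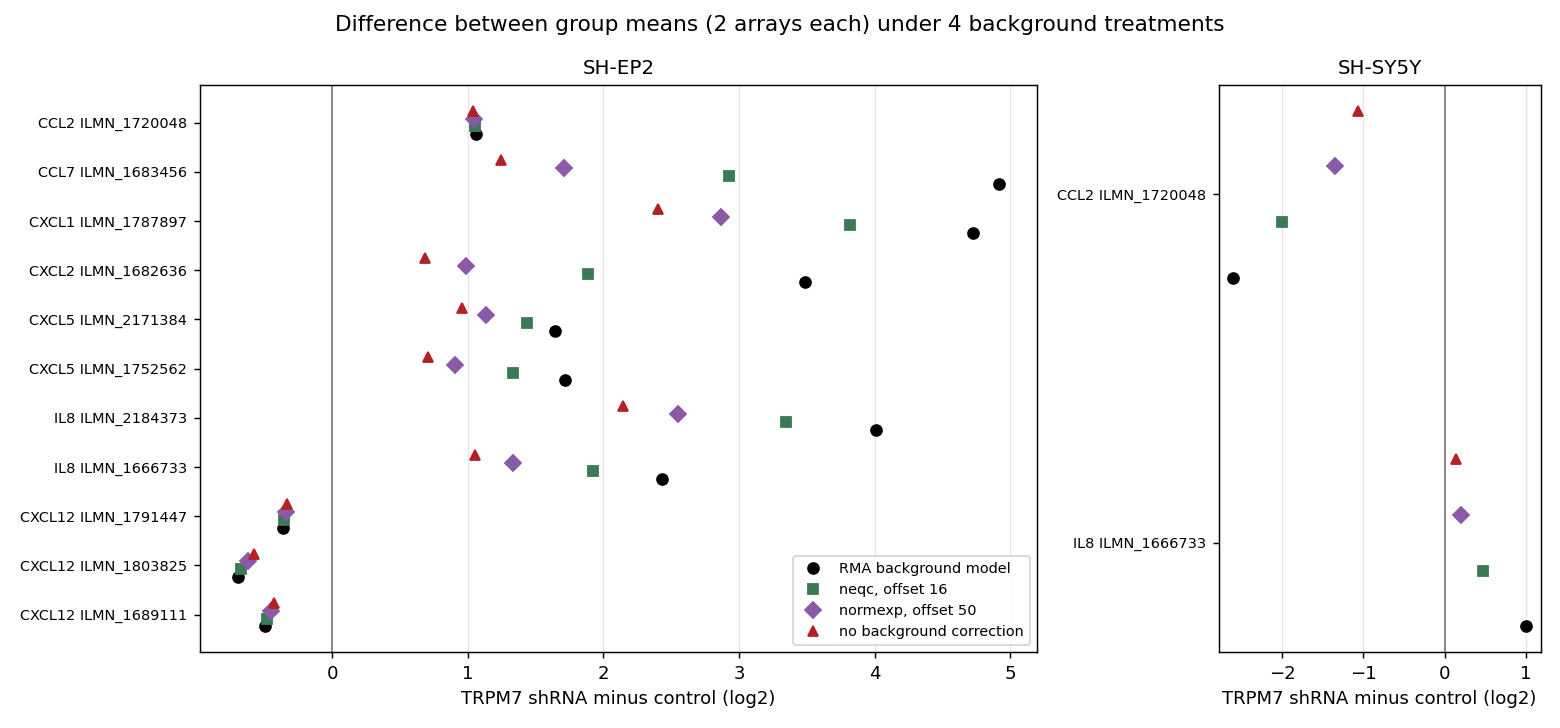
Difference in log2 level between TRPM7 shRNA and control cells (x axis) for single chemokine probes (y axis), with 1 symbol for each of 4 background treatments, in SH-EP2 cells (left) and for CCL2 and an IL8 probe in SH-SY5Y cells (right). The differences are between group means, including probes undetected in control cells (CCL7, CXCL2), for which they are not measured folds. The CXCL1 difference in SH-EP2 falls from 4.73 to 2.40, while CCL2 in SH-EP2 stays near 1.06.

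Genes whose levels followed those of a chemokine most closely over the 8 arrays were sought among probes detected on both arrays of a group. The correlations are mostly set by the difference between the cell lines, and the arrays share 4 groups. CCL2 was most like LRRC17 (Pearson's r = 0.998), EGR1 (0.998), an immediate early transcription factor, and DUSP11 (0.997). For EGR1 the mean log2 levels were 9.91 and 10.21 in SH-EP2 control and TRPM7 shRNA cells and 7.02 and 5.64 in the SH-SY5Y groups.

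IL8 (ILMN_1666733) was most like MITD1 (r = 0.993), TRIM9 (0.992) and PEX16 (0.990), with TRIM9 at mean log2 levels of 5.88 and 6.98 in SH-EP2 and 5.13 and 5.69 in SH-SY5Y control and TRPM7 shRNA cells. CXCL12 (ILMN_1791447) was most like TRIM6, EFEMP1, an extracellular matrix glycoprotein, and CXCR7, a receptor of CXCL12 that takes up the ligand (r = 0.999 for CXCR7). All 3 were expressed in SH-EP2 and close to background in SH-SY5Y cells, with EFEMP1 at 9.57 and 1.51 in the control cells.

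Most receptors that bind these chemokines were at background. By the probe with the highest mean of each gene, CCR2, CCR3 and DARC, a scavenging receptor of erythrocytes, were undetected on all 8 arrays, and CXCR1 and CXCR2 were detected on both arrays of no group. Of 23 chemokine receptor genes on the array, 4 were detected on both arrays of a group, and 0 passed the test in SH-EP2 or SH-SY5Y cells.

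Both receptors of CXCL12 were expressed, in different lines. CXCR7 had 2 probes, detected on all 4 SH-EP2 arrays and on 0 SH-SY5Y arrays. Its brighter probe had log2 levels of 11.14 ± 0.12 in SH-EP2 control and 10.80 ± 0.026 in TRPM7 shRNA cells, a difference of -0.34 that did not pass (limma adjusted p = 0.498). CXCR4 had 2 of 3 probes detected on all 4 SH-SY5Y arrays and on 0 SH-EP2 arrays. Those had differences of 0.70 (from 7.07 ± 0.18 to 7.77 ± 0.25, limma adjusted p = 0.438) and 1.23 (limma adjusted p = 0.129) in SH-SY5Y TRPM7 shRNA cells. CCR6, the receptor of CCL20, was bright by 1 of its 3 probes on every array (log2 13.31 to 13.84), while the other 2 were undetected in SH-EP2 cells, so that its probes disagreed.

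Lists of genes that act around these chemokines, with 115 genes on the array and 62 of them detected on both arrays of a group, were fitted in the same model. In SH-EP2 TRPM7 shRNA cells 10 of them rose and 3 fell, where 3.02% of all probes changed, 1.48% upwards and 1.54% downwards. In SH-SY5Y TRPM7 shRNA cells 1 rose and 4 fell, where 0.807% of all probes rose and 1.30% fell. Earlier results of these data were known when the lists were drawn up. The list counts also use only the brightest probe of a gene, while the shares are over every probe, detected or not. No enrichment is therefore read from these counts. Without the intensity trend in the fit, 3 genes were called in SH-EP2 (CX3CL1, IL1A and MMP9) and 0 in SH-SY5Y cells. Differences between the lines were tested as an interaction, the SH-EP2 change minus the SH-SY5Y change.

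Of 15 genes for NF-kB subunits and its feedback inhibitors, 4 rose in SH-EP2 cells and 0 fell, and the median difference in log2 level was 0.45. The 4 were inhibitors or modulators of NF-kB. NFKBIZ, a nuclear IkB protein, rose by 2.65 (from 5.50 ± 0.43 to 8.15 ± 0.034, limma adjusted p = 8.3e-06), with its second probe undetected. TNFAIP3, the deubiquitinase A20, rose by 1.78 (limma adjusted p = 0.0112), a call lost without SH-EP2 control replicate 2 or either SH-EP2 TRPM7 shRNA array. NFKBIE rose by 0.98 (limma adjusted p = 0.00185) and NFKBIA, which encodes IkB-alpha, by 0.76 (limma adjusted p = 2.77e-05). For the subunits detected in SH-EP2 cells, NFKB1, NFKB2, RELA and RELB, the differences of 0.04, 1.05, 0.06 and 0.56 did not pass (limma adjusted p = 0.154 for NFKB2).

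In SH-SY5Y cells 0 genes of this list rose and 1 fell, NFKBIA, by 0.39 (limma adjusted p = 0.0210). The call was lost when SH-SY5Y control replicate 1 or TRPM7 shRNA replicate 1 was omitted. It was also lost with median scaling, under the replicate block and with each line fitted alone. The list had a median difference of -0.06 in SH-SY5Y cells. The interaction was 1.16 for NFKBIA (limma adjusted p = 2.05e-05), 3.43 for NFKBIZ (limma adjusted p = 4.27e-05) and 2.74 for TNFAIP3 (limma adjusted p = 0.00971). All 3 interactions failed without the intensity trend, and that of TNFAIP3 also without SH-EP2 control replicate 2 or either SH-EP2 TRPM7 shRNA array. TNFAIP3 was detected on only 1 SH-SY5Y array, so its SH-SY5Y change lies near background.

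Of 22 cytokines that induce chemokines, their receptors and signalling proteins, 3 rose in SH-EP2 cells and 0 changed in SH-SY5Y cells, with median differences of 0.42 and -0.14. IL1A, an inducer of IL8 and CXCL1, rose from 3.42 ± 0.15 to 7.14 ± 0.15, or 13.2-fold under the RMA background model (limma adjusted p = 2.01e-05). Its control arrays, at 3.31 and 3.53, lay close to the lowest level of a detected probe there, 3.24 and 3.22. CSF2, which encodes GM-CSF, rose by 3.09 (limma adjusted p = 0.000593), with 1 of 2 control arrays detected. IRAK2, an IL1 receptor-associated kinase, rose by 1.75 (limma adjusted p = 0.00654), a call lost when any 1 SH-EP2 array was left out. IL1B and IL6 had differences of 1.44 and 1.04 that did not pass (limma adjusted p = 0.0931 and 0.0971), and TNF was undetected on all 8 arrays.

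Regulators of chemokine mRNA decay changed in both directions in SH-EP2 cells, with 1 of 7 genes higher and 2 lower. ZC3H12A, an endonuclease that degrades inflammatory mRNAs, rose by 1.83 (limma adjusted p = 0.00226), lost without SH-EP2 control replicate 1 or either TRPM7 shRNA array. ZFP36, which promotes the decay of AU-rich mRNAs, fell by 0.61 in SH-EP2 (limma adjusted p = 0.0419) and by 0.68 in SH-SY5Y cells (limma adjusted p = 0.0260). The SH-EP2 call was lost when any 1 SH-EP2 array was left out, with median scaling and under the replicate block. The SH-SY5Y call was lost without either SH-SY5Y control array or TRPM7 shRNA replicate 1, with median scaling and with each line fitted alone. ELAVL1, which stabilizes such mRNAs, fell by 0.68 in SH-EP2 cells (limma adjusted p = 0.0217) and held in 6 of 16 other settings.

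Of 10 AP-1 and C/EBP factors, JUND, a JUN family subunit of AP-1, fell in both lines, by 0.44 in SH-EP2 (limma adjusted p = 0.00170) and by 0.38 in SH-SY5Y cells (limma adjusted p = 0.00978). These calls were lost without SH-EP2 control replicate 2, and without SH-SY5Y control replicate 2 or TRPM7 shRNA replicate 1. CEBPD, a C/EBP factor of the acute phase response, rose by 1.63 in SH-SY5Y cells (limma adjusted p = 9.59e-05), from 3.05 ± 0.37 to 4.68 ± 0.096, with 1 control array detected, and did not pass with no background correction. In SH-EP2 cells CEBPD had a difference of -0.04, and the interaction was -1.67 (limma adjusted p = 0.00391), which failed under normexp, with no background correction and without the intensity trend. Of 7 proteases that process chemokines, MMP9 rose by 2.06 in SH-EP2 cells (limma adjusted p = 0.00476), lost without SH-EP2 control replicate 2 or either TRPM7 shRNA array.

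**Figure D3:**
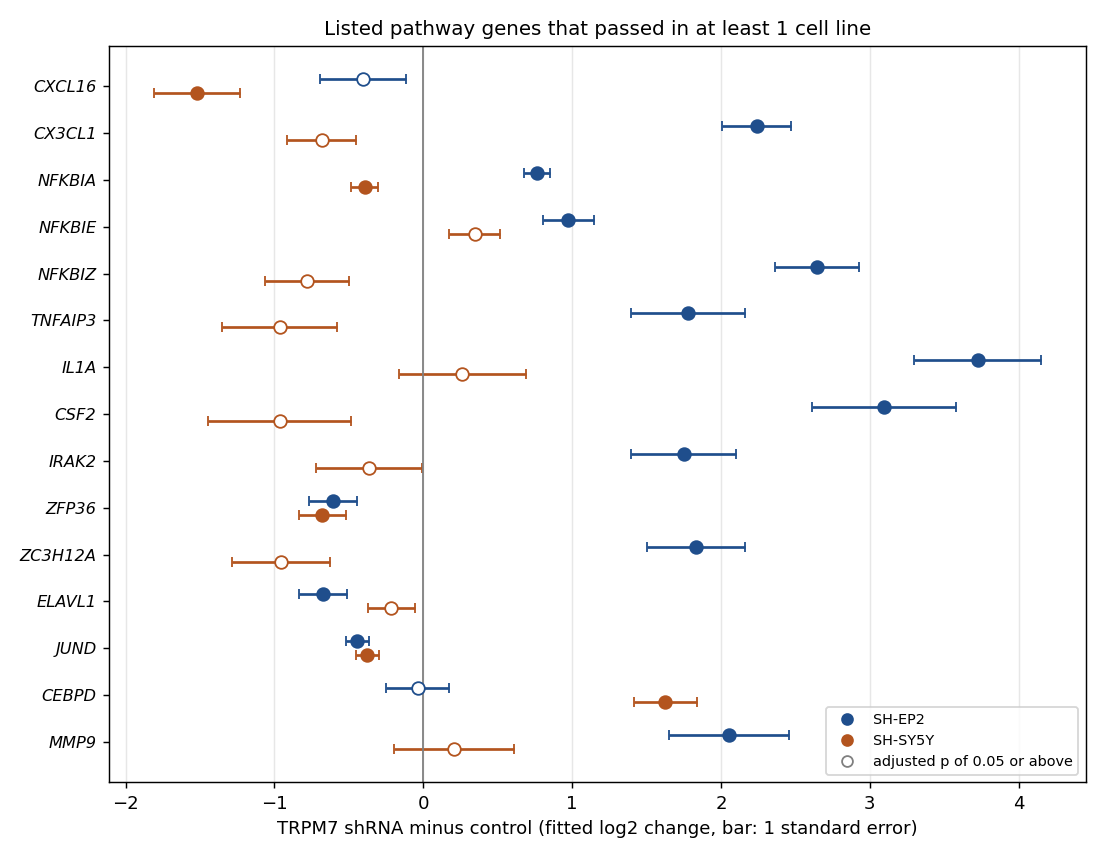
Difference in log2 level between TRPM7 shRNA and control cells (x axis) with its standard error, for the genes of the pathway lists called in either cell line (y axis), in SH-EP2 and SH-SY5Y cells. Filled points had an adjusted p under 0.05 and open points did not, and for a gene undetected in a group the fitted value is not a measured fold. NFKBIZ, IL1A and CSF2 lie between 2.65 and 3.72 in SH-EP2 cells, and JUND and ZFP36 lie below 0 in both lines.

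Of 31 further chemokine genes, 7 were detected on both arrays of a group, 1 rose in SH-EP2 cells and 1 fell in SH-SY5Y cells. CX3CL1, the membrane-bound chemokine fractalkine, was undetected in SH-EP2 control cells and reached 5.05 ± 0.33 in TRPM7 shRNA cells, at least 3.53-fold higher (limma adjusted p = 5.97e-06). Its difference in SH-SY5Y cells, from 7.62 ± 0.011 to 6.94 ± 0.097, did not pass (limma adjusted p = 0.189), and the interaction was 2.92 (limma adjusted p = 2.81e-05). CXCL16 was the 1 further chemokine called in SH-SY5Y cells, at least 1.53-fold lower (limma adjusted p = 0.00498). It is named after its value was seen, since 1 of 2 control arrays detected it. The call was lost without SH-SY5Y control replicate 1 or TRPM7 shRNA replicate 1. It was also lost under normexp, with no background correction and with each line fitted alone.

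Markers of the line types were checked by detection in control cells. Of 8 noradrenergic markers, 7 were detected on both SH-SY5Y control arrays and 2 on both SH-EP2 control arrays, and of 8 mesenchymal markers 6 and 8. Some of them changed beside the chemokines. In SH-SY5Y cells, where CCL2 fell, SNAI2 (-2.77, limma adjusted p = 1.24e-08), VIM (-0.30, adjusted p = 0.0176), DBH (-1.20, adjusted p = 0.000637) and ISL1 (-0.45, adjusted p = 0.0144) fell. In SH-EP2 cells SNAI2 (-1.39, adjusted p = 6.68e-05) and COL1A1 (-0.56, adjusted p = 0.00329) fell and CD44 rose (0.77, adjusted p = 0.0207). The part of these markers in the chemokine differences was not tested. Of 9 leukocyte markers, 5 were detected on both arrays of SH-EP2 control cells, 3 in SH-EP2 TRPM7 shRNA cells and 2 in each SH-SY5Y group. CD3E and CD2 were undetected on all arrays. Leukocytes are part of neither cell line. The summed raw signal of the 9 markers, background included, was 1471 to 1587 in SH-EP2 control and 1307 to 1312 in SH-EP2 TRPM7 shRNA cells. Its part in the chemokine differences was not tested. CD14, a monocyte marker that other cells also express, fell by 2.03 in SH-EP2 cells (limma adjusted p = 3.22e-05). In SH-SY5Y cells that sum was 1048 to 1213 in control and 1298 to 1331 in TRPM7 shRNA cells, with 0 of the 9 markers called. The median signals of these arrays were 112 and 105 in control and 117 and 117 in TRPM7 shRNA cells. The part of the sum in the CCL2 difference was not tested. Of 4 endothelial markers, 2 were detected in SH-EP2 control cells, 1 in SH-EP2 TRPM7 shRNA cells and 0 in SH-SY5Y cells.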

How the data were processed

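RNA of SH-EP2 and SH-SY5Y cells, with a scrambled or a TRPM7 shRNA, was measured on 8 arrays. The authors extracted intensities and detection p-values in GenomeStudio 2011.1 and deposited both without normalization. The deposited detection p-value was used to call probes detected (under 0.05). The study normalized by Robust-Multi-Array and names no test.

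Here the RMA background model was applied to the intensities, followed by quantile normalization of all 8 arrays and log2. Groups were those of the labels. limma 3.58.1 in R 4.3.3 was fitted to all 47322 probes (4 groups, eBayes with an intensity trend, two-sided, Benjamini-Hochberg adjustment), and checked on simulated data. Genes of the lists are given by their probe with the highest mean. Named genes of the lists passed an adjusted p of 0.05 in either line and were detected on both arrays of the group with the higher level, and receptors of the chemokines are named where detected. NF-kB subunits, IL1B, IL6, TNF, CXCL16, the undetected receptors and markers were named after their values were seen. Likeness is Pearson's r over the arrays. The members and lists were chosen with earlier results of these data known.

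Alternatives were normexp (offset 50), neqc (offset 16), no background correction, median scaling, probes detected on at least 2 arrays, no intensity trend, each line alone, the replicate number as a block, and leaving out each array. The number of arrays limits the precision. Promoter windows come from RefSeq on GRCh38.p14, matched by symbol.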

Additional observations from a re-analysis of the deposited data

Results flagged for a closer look

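CCL2 was picked out because its differences in the 2 lines had opposite signs on every array, 1.06 in log2 level in SH-EP2 and -2.61 in SH-SY5Y TRPM7 shRNA cells. The difference between the lines was not tested.

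For 9 genes of the pathway lists the change differed between the lines by the interaction test of limma, given as the SH-EP2 change minus the SH-SY5Y change in log2 level. It was 2.92 for CX3CL1, 1.16 for NFKBIA, 3.43 for NFKBIZ and 2.74 for TNFAIP3. It was 3.46 for IL1A (adjusted p = 0.0029), 4.06 for CSF2 (adjusted p = 0.0021) and 2.79 for ZC3H12A (adjusted p = 0.0020), which were undetected in SH-SY5Y cells. It was 2.11 for IRAK2 (adjusted p = 0.0389), which held in 5 of 15 other settings, and -1.67 for CEBPD. Without the intensity trend the test passed for IL1A alone of the 9. The call for TNFAIP3 was also lost without SH-EP2 control replicate 2 or either SH-EP2 TRPM7 shRNA array, and that for CEBPD under normexp and with no background correction. In SH-SY5Y cells TNFAIP3 was detected on 1 array and IRAK2 on 2, so their SH-SY5Y changes lie near background.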

How the results depend on the processing

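The fall of CCL2 in SH-SY5Y cells passed in all 16 alternative settings, with differences from -2.85 to -1.06. The probe filter, the fit without the intensity trend and the replicate block leave the difference of a probe unchanged, so its sign could not reverse there. Leaving out an array of the other line acts only through the normalization. No stability is therefore read from the next count. Of 407 alternative values of single probes, these settings included, 406 kept their sign, and 1 reversed. This was CXCL12 (ILMN_1791447) in SH-SY5Y cells, 0.27 with all arrays and -0.032 to 0.56 with single arrays left out (-0.032 without SH-SY5Y TRPM7 shRNA replicate 1).

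The count of chemokine probes called in SH-SY5Y cells was 1, and 1 to 2 with single arrays left out. The count at least 2-fold higher in SH-EP2 cells was 8, 5 with no background correction, and 8 with any array left out. Genes of the pathway lists called in SH-SY5Y cells were 5, but 2 with median scaling, 0 without the intensity trend, and 1 to 7 with single arrays left out. In SH-EP2 cells they were 13, but 22 with no background correction, 3 without the intensity trend, 21 with each line alone, and 7 to 15 with single arrays left out. The causes were not tested. Where 1 array was left out, the other was assumed to vary like the other groups.

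The replicate numbers did not pair the arrays (r of the replicate differences -0.0045 for SH-EP2, -0.11 for SH-SY5Y, over 14577 probes detected on all arrays). With the replicate number as a block, 1 chemokine probe was called in SH-SY5Y cells (CCL2 limma adjusted p = 5.95e-09). In the same fit, 4 and 12 pathway genes were called in SH-SY5Y and SH-EP2 cells. The count of 8 probes at least 2-fold higher in SH-EP2 cells uses no fit, so the block could not change it. A crossed pairing in SH-SY5Y, chosen after seeing the data, called 2 chemokine probes. Probes close to the array background limit what can be said of most of these genes in SH-SY5Y cells.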
